A study of Mus musculus with 40 samples.

Results

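The genes described here encode carrier proteins that the visceral endoderm of the mouse yolk sac makes for the early embryo. They were chosen by name as *Afp*, *Apoa1*, *Apoa2*, *Apoa4*, *Apob*, *Apom*, *Ttr*, *Rbp4*, *Amn* and *Trf*, and were found by gene symbol in the platform annotation. Of these 10 genes, 9 had a named probe, with 1 probe each among the 25697 probes of the array, which carry the names of 16593 genes. *Apob* was not analysed here. RNA came from homozygous *Aey69* mutants (called mutants), a line from an ENU screen that carries a missense change in the histone H3.2 gene *Hist2h3c1*, and from wild-type littermates (called controls), all untreated and on the C3HeB/FeJ strain. The material was the whole embryo at E9.5 (4 mutants and 3 controls), the head at E10.5 (4 and 4) and E11.5 (4 and 4), the eye region at E12.5 (4 and 3) and the eye at E13.5 (3 and 3). Except between E10.5 and E11.5, both from heads, stage and tissue change together and cannot be told apart. All mutants come from this 1 line.

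The visceral endoderm of the yolk sac takes up maternal nutrients and secretes serum proteins before the fetal liver takes over this work. Its cells build lipoproteins, carry retinol, thyroid hormone and iron towards the embryo, and reabsorb proteins through the cubilin receptor complex. Later the liver makes most of these proteins, and the choroid plexus, an epithelium of the brain that makes cerebrospinal fluid, is a known site of *Ttr* expression, as is the retinal pigment epithelium. All values below are log2 of the quantile-normalized signal, in which 1 unit is a doubling. They compare arrays for 1 gene and say nothing of the level of one gene against another. An array detected a gene where its detection p-value was under 0.05. A gene passed the detection filter at a stage where at least 2 of 3 or 3 of 4 arrays of a genotype detected it. Arrays are called by genotype and by the number in the deposited column.

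RefSeq promoter sequences (build GRCm38.p6, 250 bases before to 50 bases after each gene start) were matched for 8 of the 10 genes, all but *Ttr* and *Trf*, with 10 sequences in all. Promoters of the serum protein genes *Afp*, *Apoa1* and *Apoa2* are shown as examples, 5′ to 3′ on the strand of the gene, all on the plus strand. Capitals mark matches, on either strand, to letters that liver and endoderm transcription factors are known to bind and to the TATA box: GTTAAT for HNF1, TGTTTAC or TGTTTGC for FOXA, CAAAGTCCA for HNF4, AGATAA for GATA factors and TATAAA. No 2 of these motifs overlap in the sequences shown.
*Afp*, chr5:90490464-90490763: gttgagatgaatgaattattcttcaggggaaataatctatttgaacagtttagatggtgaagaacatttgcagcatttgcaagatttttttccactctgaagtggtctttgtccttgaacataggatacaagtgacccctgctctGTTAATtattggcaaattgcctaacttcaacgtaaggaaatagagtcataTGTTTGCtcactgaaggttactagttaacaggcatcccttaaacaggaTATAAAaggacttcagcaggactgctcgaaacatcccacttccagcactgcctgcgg
*Apoa1*, chr9:46228380-46228679: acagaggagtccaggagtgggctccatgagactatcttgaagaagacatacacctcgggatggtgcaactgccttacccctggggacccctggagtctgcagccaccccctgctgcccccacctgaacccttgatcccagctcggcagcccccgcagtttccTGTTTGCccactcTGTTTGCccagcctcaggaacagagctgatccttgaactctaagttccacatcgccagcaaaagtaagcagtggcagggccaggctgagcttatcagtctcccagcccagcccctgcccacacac
*Apoa2*, chr1:171224804-171225103: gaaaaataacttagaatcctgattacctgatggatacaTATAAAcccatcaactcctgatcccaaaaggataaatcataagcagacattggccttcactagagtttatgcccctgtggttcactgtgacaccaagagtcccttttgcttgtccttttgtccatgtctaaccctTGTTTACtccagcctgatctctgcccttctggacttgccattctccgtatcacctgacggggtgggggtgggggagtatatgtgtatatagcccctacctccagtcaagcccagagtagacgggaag

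The window of *Afp* held GTTAAT (the HNF1 letters), TGTTTGC (FOXA) and TATAAA, which began 105, 55 and 7 bases before the gene start. The window of *Apoa1* held TGTTTGC 2 times, beginning 88 and 75 bases before the start. The *Apoa2* window held a TGTTTAC that began 77 bases before the start and a TATAAA that began 212 bases before it. Among 32851 promoters of this length in the table, 7.1% held GTTAAT, 3.65% TGTTTAC, 5.07% TGTTTGC, 0.475% CAAAGTCCA, 11.2% AGATAA and 13.6% TATAAA. Of the windows not shown, that of *Apob* held TGTTTGC, on the opposite strand, and TATAAA, beginning 121 and 60 bases before the start. One window of *Rbp4* held TATAAA (28 bases before) and the other TGTTTAC on the opposite strand (241 bases before). The windows of *Apoa4*, *Apom* and *Amn*, and the second window of *Apoa2*, held none of these letters. A match is a description of the sequence and not a binding site.

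At E9.5 all 9 genes had a lower mean signal in the whole mutant embryos than in the controls, by 1.65 to 2.51 on the log2 scale (3.13-fold to 5.70-fold), and none passed the false discovery rate. The lower end is that of *Rbp4*, which mutants 2 and 4 did not detect. The groups overlapped for every gene because mutant 3 carried these transcripts at the level of the best controls. The other 3 mutants lay below the lowest control for all 9 genes. This count sets mutant 3 aside, the 9 genes varied together, and the share of all probes with this pattern was not counted. In bulk samples like these, fewer cells of a type and less RNA per cell cannot be told apart. The paper does not say whether yolk sac was removed from the samples, and the amount of it in each sample was not tested.

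**Figure D1:**
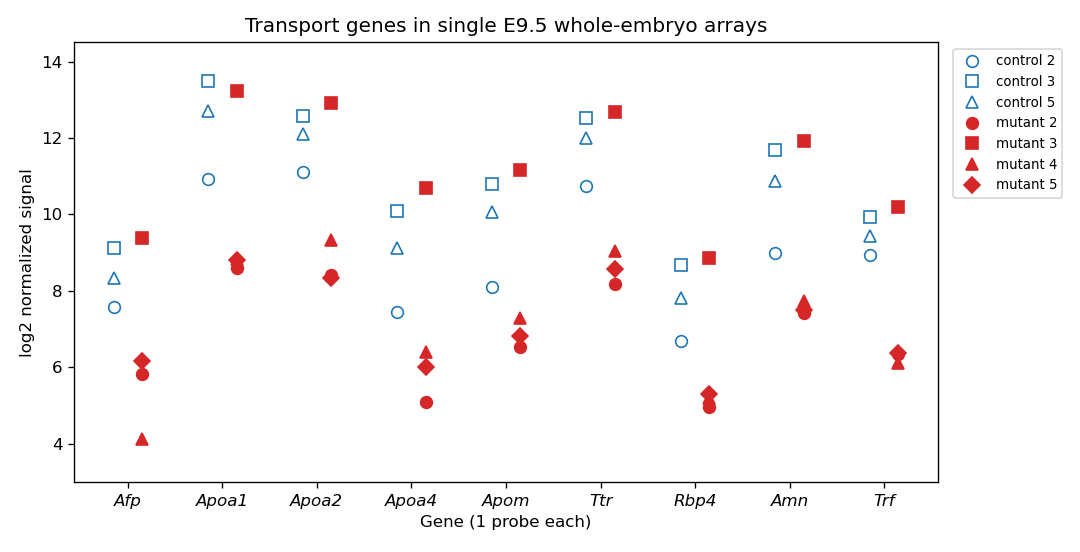
Log2 normalized signal (vertical axis) of the 9 genes (horizontal axis) in each E9.5 whole-embryo array, with controls as open blue and mutants as filled red symbols, 1 shape per array number within a genotype. Mutant 3 sits with the controls for every gene, while mutants 2, 4 and 5 sit below all 3 controls.

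Among the apolipoproteins, *Apoa1* encodes the main protein of high-density lipoprotein. Its log2 signal was 8.60, 13.22, 8.84 and 8.80 in mutants 2, 3, 4 and 5, and 10.93, 13.502 and 12.70 in controls 2, 3 and 5. Mutant 3 was second only to control 3, and the other mutants lay more than 2 units below the lowest control. The mean difference of *Apoa1* was −2.51 ± 1.06 (SE; limma, adjusted p = 0.638). *Apoa2*, which encodes another high-density lipoprotein component, measured 8.41, 12.92, 9.34 and 8.34 in the mutants and 11.11, 12.56 and 12.11 in the controls, a difference of −2.17 ± 0.96 (SE; limma, adjusted p = 0.638). *Apoa4*, an apolipoprotein of lipid absorption, measured 5.11, 10.69, 6.39 and 6.01 in the mutants and 7.45, 10.08 and 9.11 in the controls. *Apom*, whose product carries a lysosphingolipid on lipoproteins, measured 6.53, 11.16, 7.29 and 6.81 against 8.09, 10.80 and 10.07. For both genes mutant 3 was the highest of all 7 arrays, and control 2 was the lowest control.

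Among the carriers of hormone, vitamin and iron, *Ttr* encodes transthyretin, which binds thyroxine and the retinol carrier. Its signal was 8.19, 12.67, 9.05 and 8.57 in mutants 2 to 5 and 10.73, 12.51 and 12.004 in controls 2, 3 and 5 (difference −2.13 ± 0.94, SE; limma, adjusted p = 0.638). *Rbp4*, the gene of the retinol carrier, measured 4.95, 8.87, 5.20 and 5.31 in the mutants and 6.68, 8.68 and 7.82 in the controls. In mutants 2 and 4, *Rbp4* was not detected. *Trf*, which encodes the iron carrier transferrin, measured 6.34, 10.20, 6.10 and 6.38 against 8.95, 9.94 and 9.44, with the smallest standard error of the 9 genes (−2.19 ± 0.86, SE; limma, adjusted p = 0.638). Both its controls and mutants 2, 4 and 5 lay close together, with a wide gap between them.

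*Afp*, the gene of the fetal serum carrier alpha-fetoprotein, measured 5.82, 9.40, 4.13 and 6.17 in the mutants and 7.57, 9.12 and 8.33 in the controls, and mutant 4 did not detect it. *Amn*, which encodes amnionless, the membrane partner of the uptake receptor cubilin, measured 7.43, 11.91, 7.73 and 7.49 against 9.001, 11.69 and 10.87. For *Amn*, as for the secreted carriers, mutant 3 lay with the controls. Mutant 3 was the highest of the 7 arrays for 8 of the 9 genes, the exception being *Apoa1*.

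At the false discovery rate of 10%, 0 of the 9 genes and 0% of the 12901 probes that passed the detection filter were called at E9.5. At an unadjusted p under 0.05, 4 genes were lower in mutants (*Apoa1*, *Apoa2*, *Ttr* and *Trf*) and 0 were higher. Of all detected probes 10.6% passed in either direction and 4.65% were lower in mutants. The median difference of the 9 genes was −1.96, against 0.01 over all detected probes. Without mutant 3, all 9 genes had p under 0.05, their median difference was −3.04 and 5 genes were called, where 0.519% of probes were called. The 5 genes were *Apoa1* (−3.63, adjusted p = 0.0677), *Apoa2* (−3.23, adjusted p = 0.0452), *Ttr* (−3.15, adjusted p = 0.0453), *Rbp4* (−2.58, adjusted p = 0.0878) and *Trf* (−3.17, adjusted p = 0.0113), all from limma. Among mutants 2, 4 and 5 only mutant 5 detected *Rbp4*, so that it passed the filter through the controls. The 4 others had adjusted p-values of 0.115 to 0.170. Leaving out any of the other 6 arrays gave 0 calls, and leaving out control 3, control 5 or mutant 2, 4 or 5 left 0 genes at an unadjusted p under 0.05. With the replicate number of the sample titles, which is not the array number used here, as a block, in the authors' processed values, all 9 genes had p under 0.05, as did 12.3% of probes, and 0 passed the false discovery rate.

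The 9 genes varied between the E9.5 arrays as a group. Over the 7 arrays the correlation between pairs of genes ran from r = 0.877 to 0.997, with a median of 0.976 over 36 pairs. These values are a description, since the 7 points share their libraries and the correlations include the difference between genotypes. Over E10.5 heads the range was 0.582 to 0.983 with a median of 0.922 over 8 arrays. In the 3 later stages the medians were 0.06 (E11.5), −0.04 (E12.5) and 0.06 (E13.5), and most members were then near or below detection.

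Other genes of the same tissue were measured on the same arrays. The visceral endoderm markers *Hnf4a* and *Dab2* were detected on all 7 arrays of E9.5, and their mean was 8.58 to 10.02 in controls and 7.70 to 10.23 in mutants. Of the list of other yolk sac endoderm genes, 5 of 7 (6 with a probe) were detected, 5 of 5 were lower in mutants and 0 passed the test, with a median difference of −1.63. They included *Muc13*, a membrane mucin (−2.09 ± 1.06, SE), *Rhox5*, a homeobox gene (−1.63 ± 0.87), *Spink1*, a secreted trypsin inhibitor (−1.69 ± 0.92), and *Vil1*, which encodes the microvillus protein villin (−0.84 ± 0.70). The mean of this list correlated with the mean of the 9 genes at r = 0.969 over the 7 arrays. Of 21 liver secreted protein genes (20 with a probe), 10 were detected, 8 of them lower in mutants (median −1.24), and 0 passed. *Fga*, for a fibrinogen chain, differed by −2.13 ± 0.98 (SE) and *Kng1*, for kininogen, by −1.46 ± 0.74. The liver markers *Alb*, *Ahsg* and *Fgb* were detected on 0 arrays of any stage.

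Partners of the carriers had smaller median differences. Of 9 detected lipoprotein partners, 8 were lower in mutants (median −0.77), with *Apoe*, a lipoprotein receptor ligand, at −1.24 ± 0.70 (SE) and *Pla2g12b*, which acts in lipoprotein secretion, at −1.76 ± 1.02. *Apoc2*, an activator of lipoprotein lipase, had the opposite sign (0.36 ± 0.17). The endocytic partner *Dab2*, an adaptor of cubilin and megalin uptake, differed by −0.82 ± 0.51, and the 3 detected genes of its list by a median of −0.34. Of 10 detected iron and vitamin transport partners 7 were lower (median −0.15), among them the iron exporter gene *Slc40a1* (−1.10 ± 0.54) and the ferritin gene *Fth1* (−0.34 ± 0.15). Of 8 detected endoderm transcription factor genes 7 were lower (median −0.40), with *Foxa2* at −0.94 ± 0.34, *Foxa3* at −0.71 ± 0.59 and *Hnf4a* at −0.51 ± 0.63. None of these lists had a call at the false discovery rate.

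Markers of other tissues were measured on the same arrays. Of 12 trophoblast and placenta genes 9 had a probe. Detected were 5, 4 of them lower in mutants (median −1.01), with *Plac8* at −1.23 ± 0.37 (SE; limma, adjusted p = 0.638) and *Hand1* at −0.81 ± 0.29. Of 4 defining trophoblast markers 2 had a probe, and of these only *Plac1* was detected. The mean of this list was 8.22 to 8.65 in controls and 6.89 to 8.51 in mutants and correlated with the mean of the 9 genes at r = 0.825. The mean of the general epithelial genes correlated at r = 0.986 and differed by a median of −0.43. The choroid plexus list, led by *Clic6* and *Folr1*, which encodes a folate receptor, correlated at r = 0.953 (median −0.25). The embryonic erythroid genes correlated at r = 0.357. Their mean was low in mutant 4 alone, with a mean of 8.501 against 10.69 to 11.15 in the other arrays. The retinal pigment epithelium list had 2 of 12 genes detected (11 with a probe) and r = −0.339. The part of these tissues in the difference of the 9 genes was not tested. The E9.5 arrays detected 44.6% to 51.0% of probes, with the lowest share in mutant 4.

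**Figure D2:**
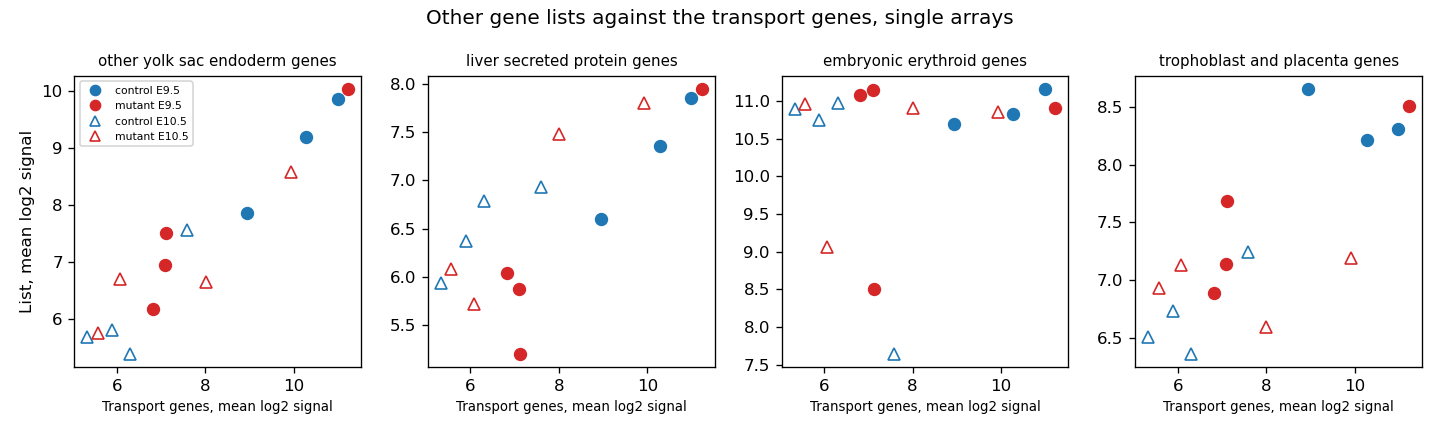
Mean log2 signal of 4 other gene lists (vertical axes, genes detected at the stage) against the mean of the 9 transport genes (horizontal axes) in single arrays of E9.5 (filled circles) and E10.5 (open triangles), with controls blue and mutants red. The yolk sac and liver lists follow the transport genes closely and the erythroid list does not. Detected genes of a list differ between stages, so the 2 stages are to be read apart.

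Over all 36 arrays, the 10 genes with the most similar pattern to the mean of the 9 genes were *Spp2* (r = 0.987), *Fga* (0.983), *Slc39a4* (0.971), *Fgg*, *Serpina10*, *Nxf7*, *Kng1*, *Pla2g12b*, *Slc13a4* and *Pdzk1* (0.952), and 47 of 10665 ranked genes exceeded r = 0.9. Spearman rank correlations of these 10 genes were lower, from 0.625 for *Pla2g12b* to 0.785 for *Fga*, and the 36 arrays include the change of stage and tissue. *Spp2* encodes a secreted phosphoprotein, *Slc39a4* an intestinal type zinc importer and *Pdzk1* a scaffold of transporters. Over the 7 arrays of E9.5 alone, *Tmprss2*, a membrane serine protease gene, came first (r = 0.999), followed by *Slc39a4*, *Slc23a3*, *Rrbp1*, *Pvr*, *Timd2*, *Car4*, *Gcnt2*, *Tmem82* and *Kng1*, and 300 of 9097 genes exceeded r = 0.9. Only *Slc39a4* and *Kng1* were in both sets.

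In E10.5 heads the mean differences ran the other way. The 7 genes that passed the detection filter were all higher in mutants, by 0.76 to 1.74 on the log2 scale, and the groups overlapped for each of them. Mutant 2 was the highest of the 8 arrays for all 9 genes. *Apoa1* measured 12.02, 9.498, 5.97 and 7.35 in mutants 2, 3, 4 and 5 and 6.35, 6.70, 5.44 and 9.39 in controls 2, 3, 4 and 5 (1.74 ± 1.19, SE; limma, adjusted p = 1.00). For *Apoa1*, control 5 lay beside mutant 3. *Ttr* measured 11.84, 9.71, 6.35 and 7.15 against 7.11, 7.68, 6.05 and 8.77, a difference of 1.36 ± 1.04 (SE; limma, adjusted p = 1.00).

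**Figure D3:**
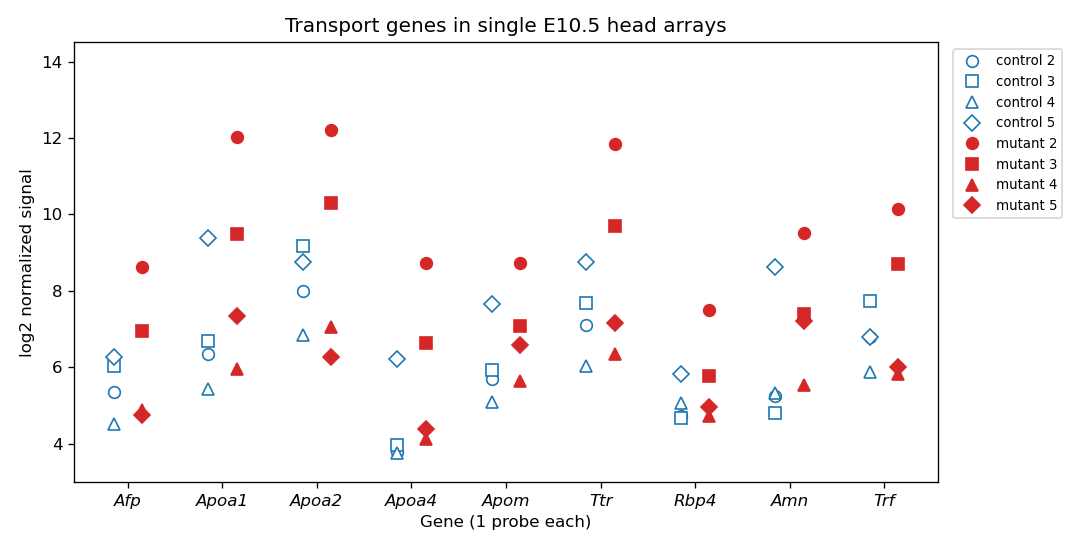
Log2 normalized signal of the 9 genes in each E10.5 head array, drawn as for E9.5 (open blue, controls; filled red, mutants). Mutant 2 is highest for every gene, and the other arrays of both genotypes overlap.

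*Trf* measured 10.14, 8.70, 5.82 and 5.998 in the E10.5 mutants and 6.79, 7.74, 5.88 and 6.80 in the controls, and *Apoa2* measured 12.21, 10.31, 7.07 and 6.27 against 8.01, 9.17, 6.85 and 8.76. Mutants 2 and 3 were above all controls for both genes, and mutants 4 and 5 were not. *Amn* measured 9.52, 7.39, 5.53 and 7.21 against 5.25, 4.81, 5.34 and 8.62, with control 5 far above the other controls. *Afp* measured 8.64, 6.96, 4.89 and 4.76 against 5.35, 6.05, 4.53 and 6.26, and *Apom* 8.73, 7.07, 5.64 and 6.59 against 5.70, 5.93, 5.11 and 7.67. *Apoa4* was detected in mutants 2 and 3 (8.73 and 6.63) and control 5 (6.21) only, and *Rbp4* in 4 of 8 arrays, so that neither passed the filter.

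At E10.5, 0 genes were called, as was 0% of the 13173 detected probes, and 0 had an unadjusted p under 0.05, where 1.12% of probes did. The median difference of the 7 genes was 0.91, against 0.01 over all detected probes. The median was 0.33 without mutant 2 alone and 0.89 without mutant 3 alone. Without both, an alternative chosen after the data were seen, it was −0.65. The other yolk sac endoderm genes were higher in mutants too (4 of 4 detected, median 0.92, 0 called), among them *Spink1* (1.27 ± 1.04, SE) and *Rhox5* (1.14 ± 0.72), and their mean followed that of the 9 genes at r = 0.888 over 8 arrays. The erythroid list was lowest in control 5 (7.65) and mutant 5 (9.07), against 10.75 to 10.97 in the other 6 arrays, and correlated at r = −0.084. Other lists also followed the mean of the 9 genes. The endocytic uptake partners had r = 0.922, the liver secreted protein genes 0.912 and the lipoprotein partners 0.828. Lower values were 0.691 (choroid plexus), 0.640 (endoderm transcription factors), 0.442 (trophoblast and placenta) and 0.351 (general epithelium). The lowest were 0.083 (iron and vitamin transport) and −0.122 (retinal pigment epithelium). The part of these lists was not tested.

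**Figure D4:**
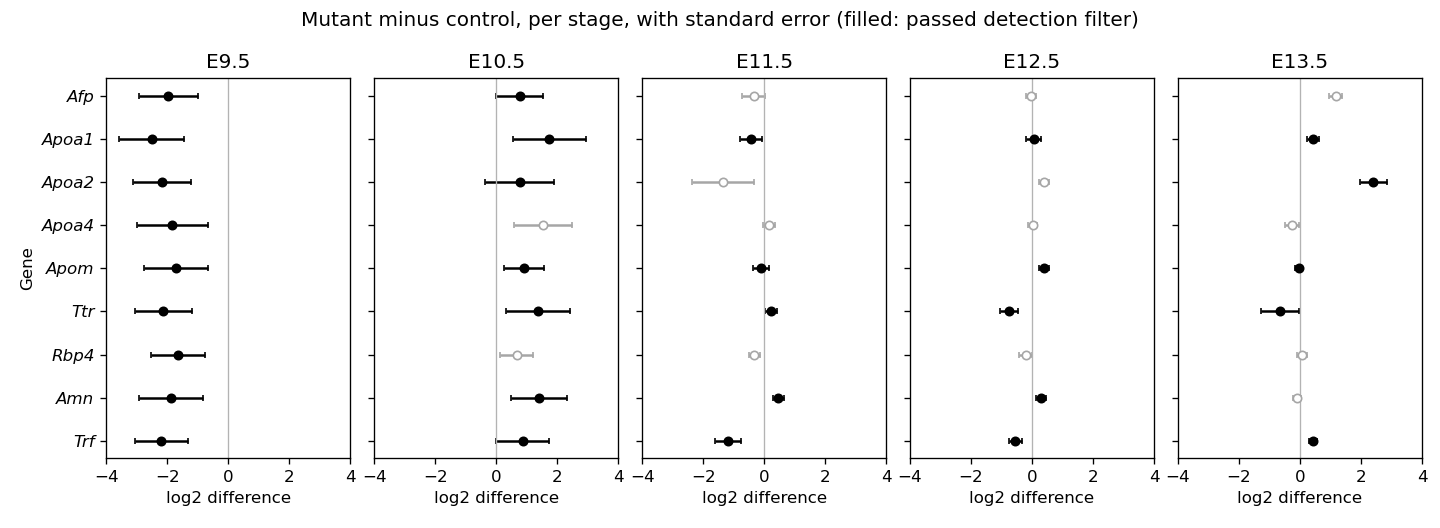
Difference of mean log2 signal, mutants minus controls (horizontal axes), with its limma standard error, for each gene (vertical axis) and stage (panels). Filled points passed the detection filter. All 9 points are below 0 at E9.5 and above 0 at E10.5, and of both signs in each later panel. The only call is *Apoa2* at E13.5.

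From E9.5 embryos to E10.5 heads, all 9 genes fell in the controls and passed the false discovery rate, where 6.11% of probes were called in either direction. The falls ran from 2.64 to 5.41 on the log2 scale with a median of −3.73. The largest was that of *Apoa1*, from 12.38 ± 1.32 (SD, n = 3) to 6.97 ± 1.70 (SD, n = 4), 42.4-fold lower (limma, adjusted p = 0.00314). *Amn* was 22.9-fold lower (limma, adjusted p = 0.00314) and *Ttr* 20.4-fold (adjusted p = 0.00795). *Apoa4*, detected on 1 of 4 E10.5 controls, and *Rbp4*, detected on 2 of 4, passed the filter through the E9.5 controls, and no fold is given for them. Without control 3 of E9.5, 3 of the 9 genes were called (*Apoa1*, *Apoa4* and *Amn*), where 0.934% of probes were, and without control 5 of E9.5 or control 2 or 4 of E10.5 the number was 6. In the mutants, with 8 genes detected, 0 were called where 3.5% of probes were, and differences ran from −1.23 for *Amn* to 0.41 for *Trf*.

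The change of the genotype difference between these stages was positive for all 9 genes, from 2.31 for *Rbp4* to 4.25 for *Apoa1*, with a median of 3.05. At an unadjusted p under 0.05, 8 genes passed, where 6.46% of probes did, the exception being *Apoa2* (2.94 ± 1.52, SE; limma, adjusted p = 0.831). None passed the false discovery rate (lowest adjusted p = 0.737), where 0.0145% of probes did. Without mutant 3 of E9.5, 8 of the 9 genes passed it, again all but *Apoa2*, where 1.55% of probes did. *Apoa4* and *Rbp4* are among these 8, although *Apoa4* was not detected on 5 and *Rbp4* on 4 of the 8 E10.5 arrays.

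**Figure D5:**
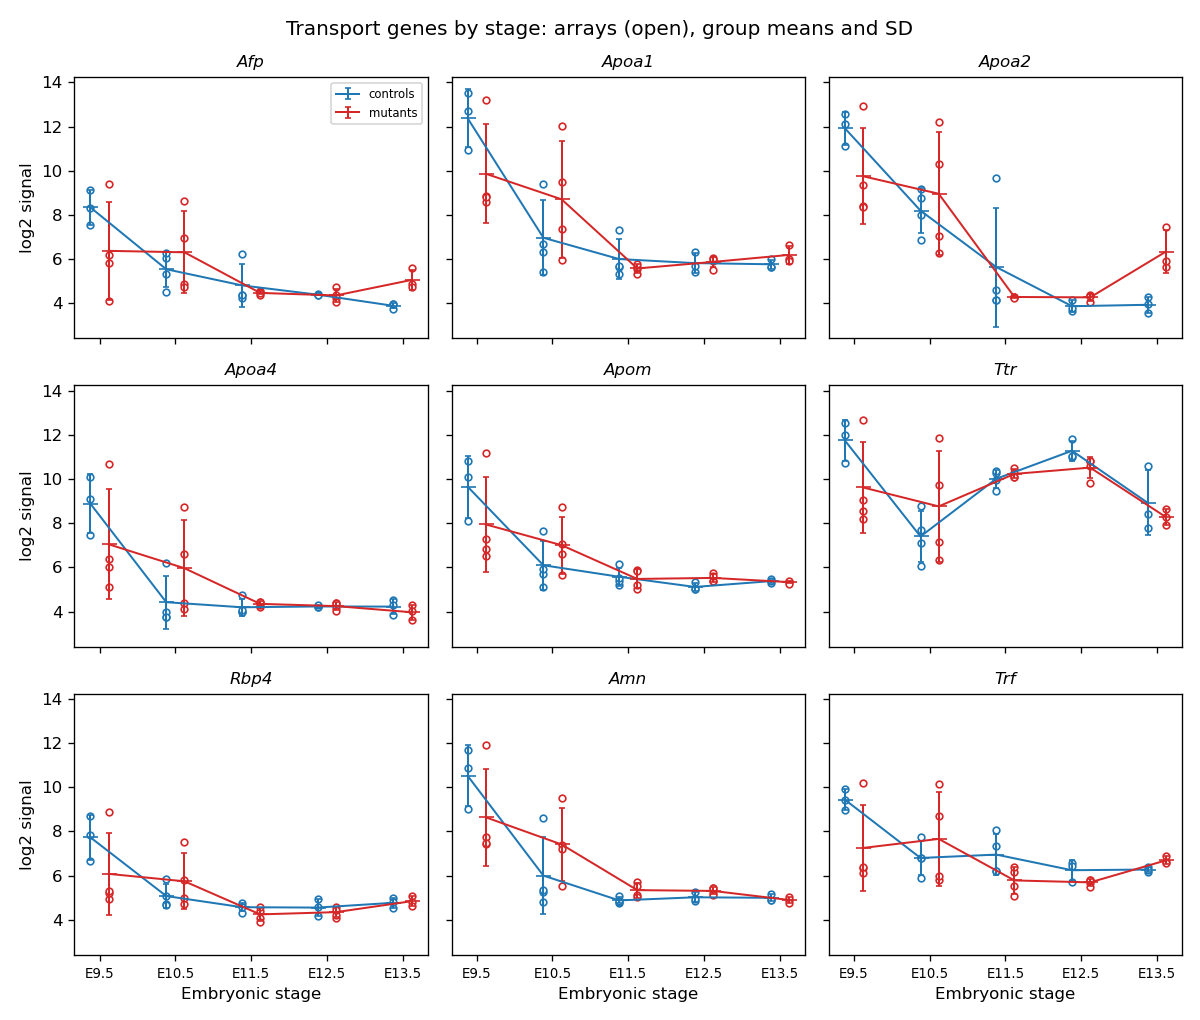
Log2 normalized signal (vertical axes) of the 9 genes by stage (horizontal axes), with single arrays as open circles and group means with their SD as lines and bars, controls blue and mutants red. *Ttr* lies at 9.47 to 11.81 in the E11.5 and E12.5 arrays, against 10.73 to 12.51 in the E9.5 controls. The other genes lie below their lowest E9.5 control from E11.5 on, with *Apoa2* of control 4 at E11.5 set apart.

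From E10.5 to E11.5 heads, 4 genes fell in the mutants at the false discovery rate, where 31% of probes were called. *Apoa2* fell from 8.96 ± 2.78 (SD, n = 4) to a level that none of the 4 E11.5 mutants detected, at least 13.6-fold lower (limma, adjusted p = 0.00221). *Apoa1* fell 8.74-fold (adjusted p = 0.0205), *Amn* 4.19-fold (adjusted p = 0.0725) and *Trf* 3.68-fold (adjusted p = 0.0805). Without mutant 2 or 3 of E10.5, or mutant 3 or 4 of E11.5, 2 genes were called. In the controls, 1 gene was called, where 13.4% of probes were. This was *Ttr*, which rose 6.11-fold from 7.40 ± 1.13 to 10.01 ± 0.40 (SD, n = 4 each; limma, adjusted p = 0.0628). No gene was called without control 2 or 4 of E10.5 or control 2, 3 or 5 of E11.5, nor under median scaling, the larger offset or with the excluded arrays. The change of the genotype difference was called for 0 genes, as for 0.00721% of probes.

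In E11.5 heads, 5 genes passed the detection filter. *Ttr* was high and even, with 10.51, 10.08, 10.27 and 10.07 in mutants 2, 3, 4 and 5 and 9.96, 10.26, 9.47 and 10.36 in controls 2, 3, 4 and 5. *Trf* measured 6.16, 5.53, 5.07 and 6.39 in the mutants and 7.35, 6.21, 8.07 and 6.19 in the controls, with overlapping groups (−1.17 ± 0.43, SE; limma, adjusted p = 0.658). *Amn* was close to detection, with 5.11, 5.71, 5.55 and 5.02 against 4.75, 4.83, 5.08 and 4.87 (0.46 ± 0.18, SE; limma, adjusted p = 0.658). Detected on 3 mutants and 1 control, it passed the filter through the mutants, where it was higher. *Apoa1* and *Apom* had p over 0.05. Of the 5 genes, 0 were called where 0.0759% of probes were, and 2 had p under 0.05 where 9.57% of probes did.

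Control 4 of E11.5 stood apart for several of these genes. *Apoa2* measured 9.67 there and was detected on no other E11.5 array (4.14 to 4.598), and *Afp* measured 6.25, against 4.25 to 4.56 undetected elsewhere. *Apoa1* (7.34), *Apom* (6.16) and *Trf* (8.07) were also highest in control 4, while *Ttr* (9.47) was lowest there. Array control 4 detected 7 of the 9 genes, and the other arrays of this stage detected 4 or 5.

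In the eye region at E12.5, *Ttr* measured 10.61, 10.80, 9.83 and 10.83 in mutants 1, 3, 4 and 5 and 11.81, 10.98 and 11.04 in controls 2, 3 and 5. The groups did not overlap, and the difference was −0.76 ± 0.30 (SE; limma, adjusted p = 0.473). The control that the study excluded at this stage measured 9.22 for *Ttr*, below all 7 arrays, and with the excluded arrays the difference was −0.26 (limma, adjusted p = 0.905). *Apom*, at 5.37, 5.38, 5.74 and 5.61 against 5.35, 5.004 and 5.01, did not overlap either (0.41 ± 0.16, SE; limma, adjusted p = 0.492), though the gap between the groups was small. *Trf* measured 5.82, 5.67, 5.49 and 5.81 against 5.71, 6.59 and 6.44 (−0.55 ± 0.22, SE; limma, adjusted p = 0.496), and control 2 lay within the mutants. *Afp*, *Apoa2*, *Apoa4* and *Rbp4* were detected on 0 of the 7 arrays. Of the 5 detected genes 0 were called where 0.489% of probes were, and 3 had p under 0.05 where 14.3% of probes did. Without control 2, 3 genes were called (*Trf*, *Apom* and *Amn*), but so were 34.1% of all detected probes. *Amn* measured 5.23, 5.44, 5.44 and 5.13 in mutants 1, 3, 4 and 5 and 5.28, 4.84 and 4.95 in controls 2, 3 and 5. All 4 mutants and 0 controls detected it, so that it passed the filter through the mutants, where it was higher.

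Between E11.5 and E12.5, 0 genes were called in controls (16.3% of probes), in mutants (11.1%) or for the change of the genotype difference (0.712%). In controls *Ttr* was 10.01 ± 0.40 (SD, n = 4) at E11.5 and 11.28 ± 0.46 (SD, n = 3) at E12.5, without overlap. The difference was 1.27 ± 0.91 (SE; limma, adjusted p = 0.491). This standard error draws on all 10 groups, and *Ttr* varied more at E9.5 and E10.5, so 0 calls do not show equal levels. *Ttr* is also made outside the yolk sac, so choroid plexus and pigment epithelium genes were read on the same arrays. The choroid plexus mean was 7.16 to 7.44 in E12.5 controls and 6.85 to 7.11 in mutants, and its gene *Kcne2*, a potassium channel subunit, differed by −0.33 (limma, adjusted p = 0.674). Of 8 detected genes of this list, 5 were lower in mutants and 3 higher, from −1.38 to 0.20 (median −0.04). At the false discovery rate 1 of them was called, lower in mutants, where 0.489% of probes were called. The retinal pigment epithelium mean was 5.92 to 6.31 in controls and 5.71 to 6.16 in mutants. The part of these cells in the *Ttr* difference was not tested.

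In the eyes at E13.5, *Apoa2* was the only gene called between the genotypes at any stage. It measured 7.47, 5.63 and 5.94 in mutants 2, 4 and 5 and 4.30, 3.55 and 3.97 in controls 2, 4 and 5, where no control detected it. The groups did not overlap, and the signal was at least 2.50-fold higher in mutants (fitted difference 2.41 ± 0.44, SE; limma, adjusted p = 0.0837), where 1.61% of probes were called. The lower bound sets the mean of the mutants against the lowest signal among detected probes of each control array. Labels of the 3 controls name both E13.5 and E12.5. If E12.5 were right, stage and genotype could not be told apart in this comparison. The call was made without control 4 (adjusted p = 0.0561, where 12.7% of probes were called) and without mutant 2 (0.0723), and was lost without control 2 (adjusted p = 0.196), control 5 (0.166), mutant 4 (0.122) or mutant 5 (0.208), and the difference was 1.84 to 2.77 when 1 array was left out. It was also lost with an offset of 50 above the lowest value (1.06, adjusted p = 0.107), with the excluded arrays (1.69, adjusted p = 0.873) and with 1 model for all groups (adjusted p = 0.709). *Afp* measured 5.60, 4.86 and 4.73 against 3.75, 3.95 and 3.97, with an adjusted p of 0.0893, but only mutant 2 detected it, so that it did not pass the filter. Mutant 2 was also the highest of the 6 arrays for *Apoa1* (6.65) and *Rbp4* (5.08, detected there alone).

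*Trf* measured 6.90, 6.63 and 6.55 in the E13.5 mutants and 6.19, 6.40 and 6.24 in the controls (0.42 ± 0.13, SE; limma, adjusted p = 0.199), without overlap. Its sign was the opposite of that at E11.5 and E12.5, but with the excluded arrays the difference was −0.051. *Ttr* measured 8.28, 7.91 and 8.64 against 8.42, 7.77 and 10.57, with control 5 far above the rest (−0.65 ± 0.62, SE; limma, adjusted p = 0.657). Without control 5 the difference was 0.18. On the same arrays the choroid plexus mean was 7.01 to 7.30 in controls and 6.71 to 6.99 in mutants, the retinal pigment epithelium mean 7.01 to 7.46 and 6.69 to 6.84, and *Folr1* was called lower in mutants (−1.30 ± 0.16, SE; limma, adjusted p = 0.0218). Their part in the *Ttr* values was not tested. *Apom* lay between 5.27 and 5.46 on all 6 arrays. At p under 0.05, 2 of the 5 detected genes passed (*Apoa2* and *Trf*), where 22.5% of probes did. The embryonic erythroid mean was 10.38 to 11.26 in mutants and 10.16 to 10.32 in controls at E13.5, and its part in the *Apoa2* difference was not tested.

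From the eye region at E12.5 to the eye at E13.5, *Ttr* fell 4.72-fold in mutants, from 10.52 ± 0.47 (SD, n = 4) to 8.28 ± 0.36 (SD, n = 3; limma, adjusted p = 0.0809), the only one of the genes called, where 41.5% of probes were. Of the 7 arrays, 6 could not be left out without losing the call, the exception being mutant 4 of E12.5, and it was also lost under median scaling and with the excluded arrays. In controls *Ttr* differed by −2.36 on the log2 scale (limma, adjusted p = 0.130), and 0 genes were called, where 23% of probes were. The change of the genotype difference was called for 0 genes, where 2.6% of probes were, and that of *Apoa2* was 2.01 ± 1.63 (SE; limma, adjusted p = 0.673).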

How the data were processed

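The authors hybridized RNA to Illumina MouseRef-8 v2.0 arrays and deposited background-subtracted signal intensity per probe from GenomeStudio, with a detection p-value per array, and a processed table of quantile-normalized signal after an offset. Of 40 arrays, the 4 that the study excluded were left out, and 36 were used. The labels of the 3 E13.5 controls disagree on the stage, with E13.5 in title and age and E12.5 in source name or description. The stage in title and age was used. Here an offset of 22 (values ran from −21 to 28964) was added, and arrays were quantile-normalized and converted to log2. Mutants and controls were compared per stage in limma 3.58.1 under R 4.3.3 (lmFit, eBayes), with Benjamini-Hochberg adjustment over all 25697 probes, a false discovery rate of 10% and the detection filter after the fit. Changes between stages came from 1 limma model with 10 groups. That model gives each gene 1 spread for all groups, although the spread differed between them. For *Apoa2* the SD was 2.78 in E10.5 mutants and 0.03 in E11.5 mutants. A change between 2 stages of small spread can therefore be missed. The fits were tested on simulated data. Where no array of a group detected a gene, the fold is a lower bound against the lowest detected signal of each array. The arrays detected 44.6% to 54.9% of probes, and their number limits the precision. The samples are labelled biological replicates, and p-values measure only the spread between them. Slide and scan information was not used here. Where groups are said not to overlap, the share of all probes without overlap was not counted. Deviations of same-numbered samples (by title) correlated at r = 0.114 to 0.566 at E9.5 (3 pairs) and 0.059 to 0.802 at E10.5 (4 pairs). The lowest pair had r = −0.571 (E11.5), −0.552 (E12.5) or −0.347 (E13.5). These values do not settle whether the number pairs samples. The main tests do not pair samples at any stage, E9.5 included, and the replicate block was run as an alternative.

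The 10 genes, the 11 gene lists and the tests were chosen with earlier results of these data known. The rule for named genes was all members, up to 4 genes per list with the smallest p at E9.5, and the 10 genes nearest to the mean of the members; *Hnf4a*, *Alb*, *Ahsg*, *Fgb*, *Kcne2* and list genes named for later stages were picked with their values known. The alternatives were median scaling, the authors' processed values, another offset, no filter or a filter before the fit, the probe with the smallest p, the 4 excluded arrays, 1 model for all groups, a replicate block and leaving out each array.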

Additional observations from a re-analysis of the deposited data

Results flagged for a closer look

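Among 54 groups of 4 arrays tested (6 groups for each of 9 genes), 12 had 1 array far from the other 3. In a single test chance flags about 1 in 20. The genes varied together and share their arrays, so the 12 are not separate observations and cannot be set against that rate. In the E9.5 mutants this was mutant 3 each time, with log2 signals of 13.22 for *Apoa1* (other mutants 8.60 to 8.84), 11.16 for *Apom* (6.53 to 7.29), 8.87 for *Rbp4* (4.95 to 5.31), 11.91 for *Amn* (7.43 to 7.73) and 10.20 for *Trf* (6.10 to 6.38). In the E10.5 controls it was control 5, at 6.21 for *Apoa4* (3.75 to 3.98, not detected) and 8.62 for *Amn* (4.81 to 5.34). In the E11.5 controls it was control 4, at 6.25 for *Afp* (4.25 to 4.39) and 9.67 for *Apoa2* (4.14 to 4.598). The other 3 were undetected signals, of *Apoa2* in an E11.5 mutant (4.25) and an E12.5 mutant (4.05) and of *Apoa4* in an E11.5 control (4.77).

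Arrays that the study excluded carried some of these transcripts above every control kept at their stage, when all 40 arrays were normalized together. The excluded E9.5 control measured 10.04 for *Afp* (kept controls 7.50 to 9.07), 11.78 for *Apom* (8.03 to 10.78), 13.03 for *Ttr* (10.71 to 12.495), 9.23 for *Rbp4* (6.62 to 8.63) and 12.41 for *Amn* (8.95 to 11.67), yet 6.99 for *Apoa2*, below its kept controls, and it did not detect *Trf*. The excluded E13.5 control measured 7.75 for *Apom* (5.28 to 5.42), 10.80 for *Ttr* (7.71 to 10.55) and 8.62 for *Amn* (4.88 to 5.15). The excluded E13.5 mutant measured 6.77 for *Apoa1* (5.61 to 5.96), 6.39 for *Apom* and 5.95 for *Amn*.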

How the results depend on the processing

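The sign of the median at E9.5 and E10.5 was kept under every alternative except the removal of mutants 2 and 3 of E10.5 together (−0.65), and the 9 calls in controls from E9.5 to E10.5 stayed within 1.5 times that number under each alternative that kept all arrays. At E13.5 the 1 call became 0 with an offset of 50 above the lowest value, 0 with the 4 excluded arrays, 0 with 1 model for 10 groups and 2 without the detection filter, and the median of 0.42 became −0.051 with the excluded arrays. The 1 call in controls from E10.5 to E11.5 became 0 under median scaling, the offset of 50 and the excluded arrays. The 4 in mutants became 2 under that offset and 2 with those arrays. The 1 in mutants from E12.5 to E13.5 became 0 under median scaling and with the excluded arrays, and the 0 in controls became 1 with the filter before the fit. Causes were not tested. At E9.5 the 4 genes at an unadjusted p under 0.05 became 0 (offset), 1 (filter first) and 8 (1 model). Median scaling moved the median of all probes by −0.35 at E9.5, −0.14 at E11.5 and −0.11 at E13.5. Less that shift, the E9.5 median of the genes was −2.09, and 0 detected genes changed sign at any stage.

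Leaving out 1 array gave medians of −3.04 to −1.57 at E9.5, 0.33 to 1.48 at E10.5, −0.23 to 0.05 at E11.5, −0.15 to 0.31 at E12.5 and 0.20 to 0.48 at E13.5, with 0 to 5 (5 without mutant 3), 0, 0, 0 to 3 (3 without control 2) and 0 to 1 calls. Between stages it gave 3 to 9, 0 to 2, 0 and 0 to 1 calls in controls, 0, 2 to 5, 0 and 0 to 1 in mutants, and 0 to 8 for the genotype difference from E9.5 to E10.5 (8 without mutant 3), with 0 for later ones. With the replicate block, 9 genes had an unadjusted p under 0.05 at E9.5 with a median of −1.71, 1 did at E12.5 in place of 3, and no count at the false discovery rate changed at any stage. At E9.5 (3 pairs) and E10.5 (4 pairs) each pair correlated best with its own number, a hint from the data only. Most genes were at or below detection after E10.5, where small differences cannot be shown.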
